A study of Rattus norvegicus with 10 samples.

Results

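Junctophilins, the release channels of the endoplasmic reticulum and its calcium pump were examined in the hippocampus of rats with and without status epilepticus evoked 3 months earlier. The set held 10 genes chosen by name: the junctophilins Jph1, Jph3 and Jph4, the ryanodine receptors Ryr1, Ryr2 and Ryr3, the inositol trisphosphate (IP3) receptors Itpr1, Itpr2 and Itpr3, and Atp2a2. Of these, 8 were matched to a row of the count matrix, and all 8 passed the filter on low counts. Ryr1 and Ryr3 were not analysed here. The 8 genes had 13 tested rows (transcript records) of the 22447 tested in all, and each gene is given below by its row with the highest mean count.

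All rats were adult males of the outbred Sprague-Dawley strain with electrodes in the left lateral amygdala and 2 weeks of recovery. In the 5 stimulated rats (rats 6 to 10) a current of 400 µA at 60 Hz was passed for 30 min, which brings on status epilepticus, and the prolonged seizure was later stopped with diazepam. The 5 sham rats (rats 1 to 5) received no current. Tissue of the left hippocampus holding the CA3 field and the dentate gyrus was taken 3 months later, and messenger RNA was sequenced. The paper states that every enrolled stimulated rat had spontaneous seizures on video EEG in the last weeks before the experiment ended. Each library came from 1 rat, so the p-values measure the spread between rats.

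Junctophilins are membrane proteins that span the narrow gap between the endoplasmic reticulum and the plasma membrane and hold the membranes together, with Jph3 and Jph4 as the forms of the brain and Jph1 and Jph2 as those of muscle. At such junctions calcium that enters through the plasma membrane acts on ryanodine receptors, which release more calcium from the store, while IP3 receptors open when receptors at the cell surface make IP3. The pump SERCA2, the product of Atp2a2, carries calcium back into the store.

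Aligned counts ranged from 13552309 to 24086059 per rat, and the reads not aligned ranged from 32.8% to 37.1% in sham rats. In stimulated rats 6 to 10 they were 35.6%, 32.0%, 41.4%, 42.9% and 45.1%, so rats 8, 9 and 10 lay above every sham rat, and the part of this in the results below was not tested. The neuron markers Rbfox3, Snap25, Syt1, Map2, Eno2, Tubb3 and Nefl summed to between 3561 and 3943 CPM in the sham group, where CPM is the count scaled to a common library size, and between 3499 and 4160 CPM in the stimulated group. The 4 measured CA3 markers summed to at least 2250 CPM in each rat. Among the defining dentate markers Prox1, C1ql2 and Calb1 were measured, Tdo2 had 1 count over all rats, and Dsp was not analysed here. Ckm, Tnnt3 and Myl2, which mark skeletal and heart muscle, had 45, 9 and 1 counts over all 10 rats. Acta1 and Actc1 of the same muscle list were measured, at 330 to 516 and 14 to 42 counts per rat, and Mylpf was not analysed here.

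The upstream sequences of Jph3, the gene with the tightest sham values of the set, and Itpr2, the member that was higher in stimulated rats by the unadjusted test, are shown because these genes differed in opposite directions. Each is the 250 bases before a RefSeq start of the gene on the GRCr8 assembly, 5′ to 3′ on the strand of the gene. The Jph3 window was at chr19:66702693-66702942 (plus strand) and the Itpr2 window at chr4:181134868-181135117 (minus strand). Both windows lie inside the overall span of their gene in RefSeq, as other predicted transcripts start further upstream. Capitals mark the letters GGGCGG on either strand, the core of the GC box bound by SP1.
Jph3: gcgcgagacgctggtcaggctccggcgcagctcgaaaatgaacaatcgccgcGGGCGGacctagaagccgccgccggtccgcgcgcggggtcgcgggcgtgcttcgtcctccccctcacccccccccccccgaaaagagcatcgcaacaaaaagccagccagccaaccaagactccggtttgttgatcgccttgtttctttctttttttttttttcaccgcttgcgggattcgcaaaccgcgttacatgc
Itpr2: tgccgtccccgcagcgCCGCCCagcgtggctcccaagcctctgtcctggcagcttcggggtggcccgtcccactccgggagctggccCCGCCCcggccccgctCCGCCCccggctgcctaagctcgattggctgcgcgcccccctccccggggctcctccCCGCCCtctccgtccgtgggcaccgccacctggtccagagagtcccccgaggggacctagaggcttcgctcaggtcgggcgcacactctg

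The Jph3 window held 30 CpG and 61.6% G and C, and the Itpr2 window held 25 CpG and 76.0% G and C. Over 33469 such windows the medians were 5 CpG and 51.2%, and 94.65% of windows had fewer CpG than Jph3 and 90.26% fewer than Itpr2. GGGCGG occurred 1 time in Jph3 and 4 times in Itpr2, and at least once in 30.47% of all windows. On both strands the letters of the cAMP response element (TGACGTCA, in 1.587% of windows), its shorter form TGACG that overlaps it (18.22%), the AP-1 site bound by Fos (TGANTCA, 6.34%), the E-box (CACGTG, 5.593%) and the EGR site (GCGNGGGCG, 4.291%) were searched, and 0 were found in these windows. RefSeq entries matched 6 of the 8 measured members, all but Jph1 and Jph4. For Jph3 the study reports a change of promoter methylation beside that of messenger RNA in this model. Its promoters were longer stretches than these windows, and methylation was not analysed here.

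Across the whole set, the brain junctophilins Jph3 and Jph4 were lower and Itpr2 was higher in stimulated than in sham rats by the unadjusted edgeR quasi-likelihood test, and no member passed after adjustment. At an unadjusted p-value under 0.05, 2 of 8 members were lower, where 3.16% of the tested rows were, and 1 of 8 was higher, where 6.70% were. In either direction this made 3 of 8 members against 9.86% of rows. Adjusted over all rows, 0 of 8 members and 0.0% of rows passed, and the adjusted p of the members ranged from 0.3992 to 0.9863. Over all 22447 rows 2214 had an unadjusted p-value under 0.05, and at an adjusted p-value under 0.05 the likelihood ratio test of edgeR called 119, its exact test 90, DESeq2 33 and limma-voom 0. None of those alternatives called a member. By the exact permutation test over every way of splitting the 10 rats into groups of 5 (two-sided, smallest possible p = 0.00794), 2 of 8 members had p under 0.05, against 7.36% of rows. The ranges of the groups overlapped for all 8 members, while 1.29% of rows had groups that did not overlap. The log2 fold change was negative for 5 members and positive for 3, with a median of -0.11 where that of all rows was 0.012.

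**Figure D1:**
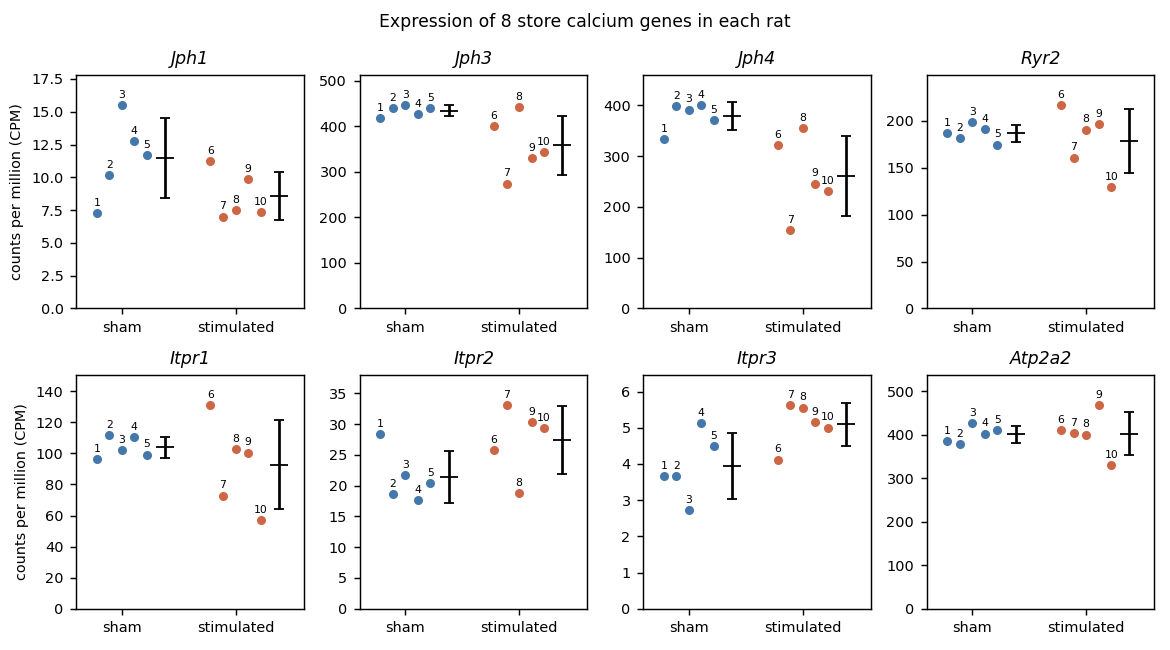
Level of each of the 8 measured genes in CPM (vertical axes, each starting at 0) by group, with 1 point per rat labelled by rat number and bars for the mean and SD (n = 5). For Jph3 and Jph4 stimulated rats 6, 7, 9 and 10 lie below all sham rats while rat 8 lies among them. For Itpr2 rats 7, 9 and 10 lie above all sham rats.

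Among the junctophilins, Jph3 (NM_001107437), a junctional protein of neurons, lay within a narrow range in sham rats and was spread out in stimulated rats. The levels in sham rats 1 to 5 were 417.8, 439.6, 446.7, 427.0 and 440.7 CPM. In stimulated rats 6 to 10 they were 400.0, 274.2, 442.2, 329.7 and 343.8 CPM. Stimulated rats 6, 7, 9 and 10 lay below every sham rat, and rat 8 lay inside the sham range. Sham rats averaged 434.4 ± 11.7 CPM and stimulated rats 358.0 ± 65.0 CPM (SD, n = 5 each). The log2 fold change was -0.28 (SE 0.109, 95% interval -0.51 to -0.05, edgeR adjusted p = 0.4315), and the exact permutation p was 0.0397. The call at the unadjusted p-value was lost without stimulated rat 9.

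The coefficient of variation of Jph3 was 2.70% in sham and 18.2% in stimulated rats, where counting error alone gives 1.16%. On the log2 scale the SD in stimulated rats was 6.78 times that in sham rats, and 1.38% of the tested rows had a higher ratio. The ratio was above 1 for 6 of 8 members, as it was for 69.54% of rows, whose median ratio was 1.367.

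Jph4 (NM_001003711), the other neuronal junctophilin, had the lowest log2 fold change of the set. Sham rats 1 to 5 had 334.0, 399.0, 391.8, 400.7 and 370.8 CPM, and stimulated rats 6 to 10 had 322.1, 154.7, 354.5, 245.9 and 230.8 CPM. As for Jph3, rats 6, 7, 9 and 10 were below all sham rats and rat 8 was not. The means were 379.3 ± 28.0 and 261.6 ± 78.9 CPM (SD, n = 5 each), a mean 31.0% lower in stimulated rats. The log2 fold change was -0.54 (SE 0.172, 95% interval -0.91 to -0.17, edgeR adjusted p = 0.3992), with an exact permutation p of 0.0159. It ranged from -0.68 to -0.41 when each rat was left out, and the unadjusted p-value stayed under 0.05 each time. Jph3 and Jph4 were on the study's list of genes with altered expression in this model, both as downregulated. The study's adjusted p-values for both were under 0.05, whereas neither passed here after adjustment. Its methods count fewer stimulated animals than were used here, and the cause of the difference was not tested. That list was drawn from samples of this same experiment and also held Itpkc, Hspa5, Fos and Aqp4, which are given below. The direction of these genes here is therefore no independent evidence.

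Rbfox3, a marker of neuronal nuclei, is given because, after its values were seen, the same rats lay below the sham range. It was at 183.2, 193.5, 226.7, 210.5 and 193.7 CPM in sham rats 1 to 5 and at 182.7, 124.1, 221.1, 155.4 and 177.8 CPM in stimulated rats 6 to 10. Rats 6, 7, 9 and 10 were below every sham rat, rat 6 by a small margin, and rat 8 was inside the sham range. Its log2 fold change was -0.23 (SE 0.128, edgeR adjusted p = 0.5694), and the exact permutation p was 0.111. The other 6 neuron markers had log2 fold changes between -0.10 and 0.13 and did not follow this pattern. In rat 7, Map2, Eno2, Tubb3 and Nefl were above every sham rat, at 869.1, 774.1, 559.7 and 932.7 CPM. Snap25 and Syt1 were below every sham rat in rat 7, at 546.7 and 354.0 CPM. The part of neuron content in the values of Jph3 and Jph4 was not tested.

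Because both junctophilins are read in the same library, their ratio does not depend on the scaling of that library. Counts of Jph4 over counts of Jph3 were 0.80, 0.91, 0.88, 0.94 and 0.84 in sham rats 1 to 5. They were 0.81, 0.56, 0.80, 0.75 and 0.67 in stimulated rats 6 to 10. In rats 7, 9 and 10 the ratio was below that of every sham rat, so Jph4 was lower by a larger factor than Jph3 there, and in rats 6 and 8 it lay inside the sham range. The ratio was looked at after its values were seen and was not tested.

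Jph1 (NM_001106630), a junctophilin known from skeletal muscle, had few counts. Sham rats 1 to 5 had 7.3, 10.2, 15.5, 12.8 and 11.7 CPM, and stimulated rats 6 to 10 had 11.2, 7.0, 7.5, 9.8 and 7.3 CPM. Sham rat 1 lay among the lowest stimulated rats, and the groups overlapped widely. The means were 11.5 ± 3.06 and 8.58 ± 1.86 CPM (SD, n = 5 each), the log2 fold change was -0.42 (SE 0.201, 95% interval -0.85 to 0.01, edgeR adjusted p = 0.5157) and the exact permutation p was 0.0952. The unadjusted p-value came under 0.05 without sham rat 1, stimulated rat 6 or stimulated rat 9. Jph2, the heart form and not a member of the set, was at 2 to 13 counts per rat, with a log2 fold change of 0.73 (SE 0.616, edgeR adjusted p = 0.718), and a difference was not detectable at this depth.

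**Figure D2:**
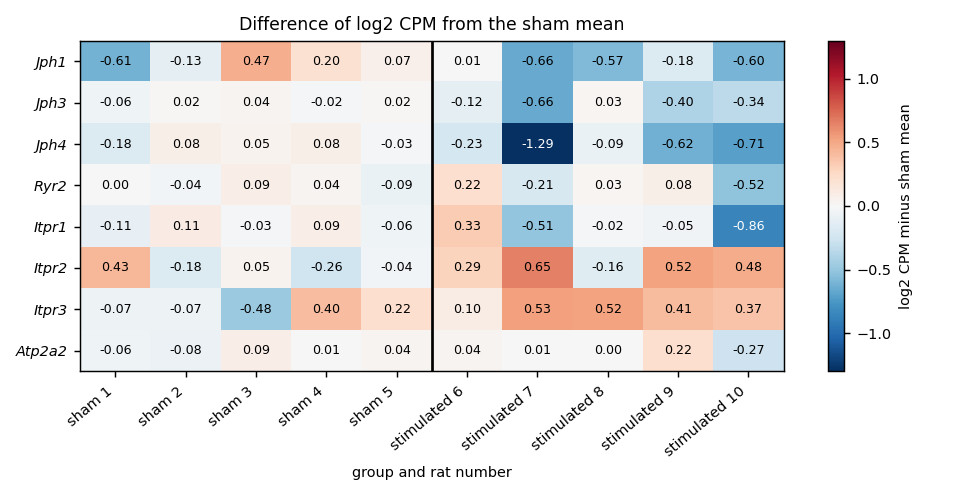
Log2 CPM of each gene in each rat minus the mean of the 5 sham rats (colour and printed number), with genes as rows and rats as columns and a black line between the groups. Rat 7 holds the lowest values of Jph3 and Jph4 (-0.66 and -1.29), and rat 10 the lowest values of Ryr2, Itpr1 and Atp2a2 (-0.52, -0.86 and -0.27).

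Ryr2 (NM_001191043), the ryanodine receptor of heart and brain, did not differ in mean beyond the spread. Sham rats 1 to 5 had 186.7, 181.7, 198.5, 191.1 and 174.8 CPM, and stimulated rats 6 to 10 had 216.9, 160.8, 190.8, 196.8 and 129.6 CPM. Rat 6 was above every sham rat and rats 7 and 10 were below every sham rat. The means were 186.6 ± 9.02 and 179.0 ± 34.2 CPM (SD, n = 5 each), the log2 fold change was -0.06 (SE 0.118, 95% interval -0.31 to 0.19, edgeR adjusted p = 0.9019) and the exact permutation p was 0.627. The sign changed without stimulated rat 10, to 0.04. The SD of log2 CPM was 4.19 times higher in stimulated rats, with 5.26% of rows higher. The other row of Ryr2, which may share reads with this one, had a log2 fold change of -0.04, and its counts were between 0.527 and 0.631 times those of the first row in each rat.

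Itpr1 (NM_001007235), the main IP3 receptor of neurons, showed stimulated rats on both sides of the sham range. In sham rats 1 to 5 the levels were 96.5, 111.7, 101.9, 110.6 and 99.2 CPM, and in stimulated rats 6 to 10 they were 130.9, 72.9, 102.6, 100.5 and 57.2 CPM. Rat 6 was again above and rats 7 and 10 again below every sham rat, and rats 8 and 9 were inside the sham range. The means were 104.0 ± 6.81 and 92.8 ± 28.6 CPM (SD, n = 5 each), giving a log2 fold change of -0.16 (SE 0.173, 95% interval -0.54 to 0.21, edgeR adjusted p = 0.7843) and an exact permutation p of 0.357. Without stimulated rat 6 the value was -0.33 and the unadjusted p-value fell under 0.05, and without stimulated rat 10 it was -0.03. The SD of log2 CPM was 4.97 times that in sham rats, with 3.31% of rows higher. The other 2 rows of Itpr1 had log2 fold changes of -0.18 and -0.17 and counts between 0.930 and 1.01 times those of the first row, so the 3 rows are close to 1 measurement.

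Markers of CA1 pyramidal cells, a field next to CA3, were uneven over the stimulated rats. The sum of Wfs1, Fibcd1, Mpped1 and Pou3f1 was 353.3 CPM in rat 6 and 99.6 CPM in rat 10, the rats with the highest and the lowest Itpr1, and 182.8, 198.6 and 206.2 CPM in rats 7, 8 and 9. In sham rats the sum ranged from 175.7 to 295.8 CPM, so rat 7, which was low in Itpr1 and Ryr2, lay inside that range. Of the 4 CA1 markers, 0 were called in either direction at an unadjusted p-value under 0.05, where 9.86% of all rows were. The part of tissue composition in the spread of Itpr1 and Ryr2 was not tested. In bulk tissue, fewer cells of a type and less RNA per cell cannot be told apart.

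Itpr2 (NM_031046), an IP3 receptor known from glia and other non-neuronal cells, was higher in most stimulated rats. In sham rats 1 to 5 the levels were 28.3, 18.6, 21.8, 17.6 and 20.5 CPM, and in stimulated rats 6 to 10 they were 25.8, 33.1, 18.8, 30.3 and 29.3 CPM. Rats 7, 9 and 10 were above every sham rat, while sham rat 1 lay above rats 6 and 8. The means were 21.4 ± 4.22 and 27.5 ± 5.50 CPM (SD, n = 5 each), a mean 28.6% higher in stimulated rats. The log2 fold change was 0.36 (SE 0.162, 95% interval 0.02 to 0.71, edgeR adjusted p = 0.4815) and the exact permutation p was 0.103. The unadjusted call held in 13 of the 21 alternative settings. It was lost without any one of sham rats 2, 3, 4 or 5 or of stimulated rats 6, 7, 9 or 10, and with sham rat 1 left out the value was 0.48.

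Itpr3 (NM_013138), the IP3 receptor of many epithelial and secretory cells, was at low counts. In sham rats 1 to 5 the levels were 3.7, 3.7, 2.7, 5.1 and 4.5 CPM, and in stimulated rats 6 to 10 they were 4.1, 5.6, 5.6, 5.2 and 5.0 CPM. Sham rat 4 lay among the stimulated rats and stimulated rat 6 among the sham rats. The means were 3.93 ± 0.914 and 5.09 ± 0.603 CPM (SD, n = 5 each), giving a log2 fold change of 0.36 (SE 0.186, 95% interval -0.04 to 0.76, edgeR adjusted p = 0.5416) and an exact permutation p of 0.0556. Counting error alone gives a coefficient of variation of 11.0% at this depth. The value ranged from 0.26 to 0.48 with each rat left out, and the unadjusted p-value came under 0.05 without sham rat 4.

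Atp2a2, the SERCA2 pump that refills the store, was close to equal in the 2 groups. Its row with the highest counts is a non-coding record (NR_027839). In sham rats 1 to 5 the levels were 385.1, 378.1, 426.1, 402.8 and 410.9 CPM, and in stimulated rats 6 to 10 they were 411.5, 403.2, 400.4, 467.6 and 331.0 CPM. Rat 9 was above and rat 10 below every sham rat, and the others were inside the sham range. The means were 400.6 ± 19.4 and 402.7 ± 48.6 CPM (SD, n = 5 each), giving a log2 fold change of 0.01 (SE 0.0878, 95% interval -0.18 to 0.20, edgeR adjusted p = 0.9863) and an exact permutation p of 0.992. The coding rows NM_001110139 and NM_001110823 gave 0.04 and -0.01, and the value of NR_027839 was between -0.05 and 0.07 over 21 alternative settings, with a negative sign in 8 of them.

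**Figure D3:**
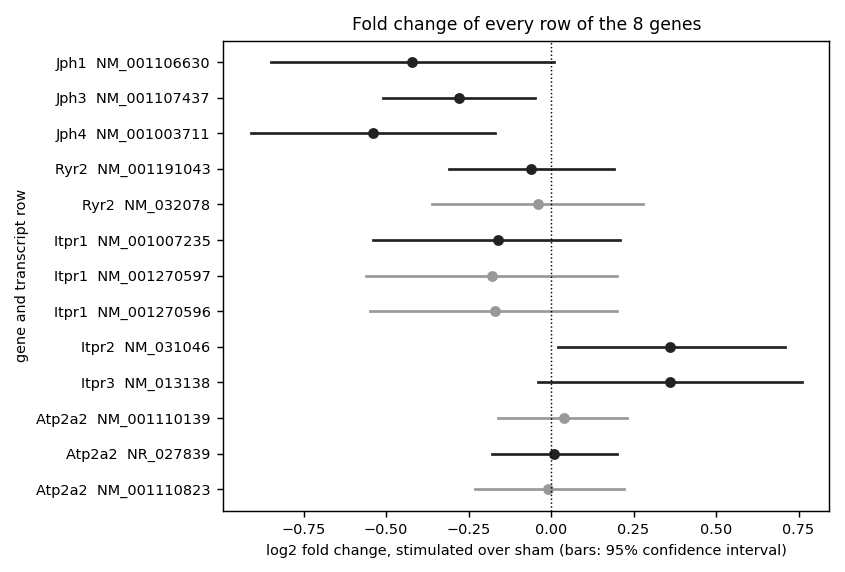
Log2 fold change of stimulated over sham rats (horizontal axis) for the 13 rows of the 8 genes, with 95% confidence intervals from the edgeR quasi-likelihood fit. Black marks the row with the highest mean count of each gene and grey its other rows, which may share reads with it. The intervals of Jph3 and Jph4 lie below 0, that of Itpr2 lies above 0, and the other 5 genes have intervals that include 0.

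By rat, stimulated rats 7 and 10 each had 5 of 8 members below every sham rat, where 26.8% and 24.1% of all tested rows were. Rats 6 and 9 had 2 each, where 14.2% and 23.7% of rows were, and rat 8 had 0, where 17.6% were. Each sham rat was set against the other 4 sham rats only, which is easier to pass than all 5. Sham rat 1 had 4 members below, where 17.8% of rows were, and sham rat 3 had 4 above, where 21.9% were. A count of 4 in 1 direction thus also occurred among sham rats by this easier comparison. Above every sham rat were 3 members in rat 9, 2 each in rats 6 and 7, and 1 each in rats 8 and 10. The shares of all rows above every sham rat were 25.55% in rat 9, 16.0% and 28.8% in rats 6 and 7, and 17.7% and 25.6% in rats 8 and 10. Fos, an immediate early gene that neurons switch on with activity, was uneven over the same rats. It was at 3.3, 3.9, 4.1, 4.0 and 5.3 CPM in sham rats 1 to 5 and at 5.6, 106.3, 5.2, 50.3 and 61.7 CPM in stimulated rats 6 to 10. Its 3 high rats were the rats with the lowest Jph3 and Jph4 and the highest Itpr2.

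Astrocyte markers also differed between rats. The sum of Gfap, Aqp4, Slc1a3, Aldh1l1, Gja1 and Slc1a2 ranged from 2512 to 3092 CPM in sham rats. It was 2604, 7861, 2677, 3597 and 6796 CPM in stimulated rats 6 to 10. At an unadjusted p-value under 0.05, 4 of 6 markers were higher, where 6.70% of all rows were. Most of this sum was Gfap, a gene of reactive astrocytes, at 6469, 2079 and 5396 CPM in rats 7, 9 and 10 and at 1327 to 1927 CPM in sham rats. The glutamate transporter Slc1a3 was also above every sham rat in these 3 rats. The water channel Aqp4 was above every sham rat in all 5 stimulated rats, at 125.8 and 126.5 CPM in rats 6 and 8 against 120.6 CPM in the highest sham rat. Aldh1l1, at 16.4 CPM in rat 7 and 29.3 CPM in rat 10, was below the sham range of 40.5 to 50.9 CPM, and Gja1 was below every sham rat in rat 7, at 271.1 CPM, so the 6 markers did not move together. The part of astrocyte content or state, of recent activity or of single rats in the differences of Jph3, Jph4 and Itpr2 was not tested.

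Markers of the other cell types varied as well. Summed endothelial markers were at 150.9 to 167.3 CPM in sham and 131.2 to 280.3 CPM in stimulated rats, with 2 of 5 higher at an unadjusted p-value under 0.05, and smooth muscle and pericyte markers were at 55.95 to 73.41 and 64.61 to 126.3 CPM, with 2 of 5 higher. Microglial markers were at 268.6 to 335.7 and 292.4 to 417.8 CPM, with 1 of 6 higher. Of the neuron, dentate, CA1, interneuron and oligodendrocyte markers 0 were called, and of the 4 CA3 markers 1 was higher. Of all rows, 6.70% were higher and 3.16% lower at that threshold. Dentate markers summed to 242.2, 158.7, 246.0, 355.4 and 202.3 CPM in stimulated rats 6 to 10, against 243.3 to 297.8 CPM in sham rats. In rat 7 C1ql2 was at 44.8 CPM, against 140.5 to 165.1 CPM in sham rats, while Prox1 and Calb1 were inside the sham range. Oligodendrocyte markers were lowest in rat 7, at 2045 CPM, against 2532 to 3655 CPM in sham rats. Of the listed markers of cerebellar Purkinje cells, neurons rich in Itpr1, Pcp2 was at no more than 1.91 CPM and Car8 at no more than 7.02 CPM in any rat, and the third, Calb1, is the dentate marker named above, which was lowest in rat 10, at 38.2 CPM against 66.8 to 102.3 CPM in sham rats.

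Around the members, 87 other genes of store calcium handling were listed by role, and 80 were measured and tested. At an unadjusted p-value under 0.05, 7 were higher and 1 was lower, 0 passed after adjustment, and 0 had groups that did not overlap. This is 8.75% higher and 1.25% lower, beside 6.70% and 3.16% of all rows. The log2 fold change was positive for 50 genes and negative for 30, with a median of 0.05. Without stimulated rat 6 or without stimulated rat 8 the count of called genes was 14 in place of 8. Calls over all rows rose in the same fits, from 2214 to 3145 without rat 6 and to 3034 without rat 8.

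Genes of IP3 removal held 3 of the 7 that were higher, of 6 measured, where 6.70% of all rows were higher. The other 3, Itpka, Inpp1 and Impa1, were not called and had log2 fold changes of -0.12, -0.17 and -0.03. Itpkc (NM_178094), a kinase that turns IP3 into IP4, was at 14.7, 14.7, 13.2, 13.3 and 11.5 CPM in sham rats 1 to 5 and at 12.8, 57.5, 17.8, 50.5 and 23.5 CPM in stimulated rats 6 to 10. Rats 7 to 10 were above every sham rat, and rat 6 was inside the sham range. Its log2 fold change was 1.27 (SE 0.341, 95% interval 0.54 to 2.00, edgeR adjusted p = 0.376), and the exact permutation p was 0.0397. The adjusted p was 0.0464 by the likelihood ratio test of edgeR and ranged up to 0.661 over the other alternatives.

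Itpkb (NM_019312), a second such kinase, was at 28.3 to 33.7 CPM in sham rats and at 32.1, 99.5, 25.8, 44.5 and 45.4 CPM in stimulated rats 6 to 10. Its log2 fold change was 0.69 (SE 0.280, edgeR adjusted p = 0.446), which came to 0.26 without stimulated rat 7. Inpp5a (NM_001108923), a phosphatase that ends the IP3 signal, was at 20.5 to 30.5 CPM in sham rats and at 28.0, 54.2, 29.1, 38.8 and 38.8 CPM in stimulated rats 6 to 10, with a log2 fold change of 0.47 (SE 0.172, edgeR adjusted p = 0.418), which came to 0.29 without stimulated rat 7. For both genes rats 7, 9 and 10 were above every sham rat.

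Homer1 (NM_031707), a scaffold that links IP3 receptors to glutamate receptors and has a short form switched on by activity, was the called gene among the 10 IP3 receptor partners. It was at 40.6 to 51.2 CPM in sham rats and at 45.5, 121.5, 43.6, 109.0 and 58.2 CPM in stimulated rats 6 to 10, with a log2 fold change of 0.75 (SE 0.257, edgeR adjusted p = 0.411), which came to 0.49 without stimulated rat 7. Rats 7, 9 and 10, the rats with high Fos, were again above every sham rat. Of the store chaperones and buffers, Hspa5 (BiP) had a log2 fold change of 0.32 (SE 0.098, edgeR adjusted p = 0.396) and Calu (calumenin) one of 0.25 (SE 0.103, edgeR adjusted p = 0.454). Atp2c1, the calcium pump of the Golgi, had a log2 fold change of 0.25 (SE 0.096, edgeR adjusted p = 0.423).

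Slc8a2 (NM_078619), the sodium-calcium exchanger NCX2 of the plasma membrane, was the 1 gene that was lower. It was at 268.5, 352.5, 374.5, 364.0 and 350.5 CPM in sham rats 1 to 5 and at 281.8, 194.3, 305.9, 261.1 and 312.7 CPM in stimulated rats 6 to 10, and sham rat 1 stood apart from the other sham rats. The log2 fold change was -0.34 (SE 0.127, 95% interval -0.61 to -0.06, edgeR adjusted p = 0.424), and the exact permutation p was 0.0476. Slc8b1, the mitochondrial exchanger, had a log2 fold change of -0.48 (SE 0.234, edgeR adjusted p = 0.524) with 4 stimulated rats below all sham rats, and came to -0.32 without stimulated rat 7. Over 20 alternative settings the unadjusted call held in all 20 for Itpkc, Homer1 and Hspa5, in 19 for Inpp5a and Slc8a2, in 18 for Atp2c1, in 15 for Itpkb and in 12 for Calu.

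In groups with 0 called genes, the gene with the lowest p-value was Saraf for store-operated entry (log2 fold change 0.07, edgeR adjusted p = 0.799), Plcb2 for IP3 formation (0.62, 0.547), Fkbp1a for ryanodine receptor partners (0.21, 0.525) and Kcnn3 for plasma membrane channels at junctions (0.32, 0.730). The 3 genes reported for store leak and other stores had values between -0.13 and 0.05. All 6 genes of store-operated entry, through which emptied stores refill, had values between -0.04 and 0.07.

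**Figure D4:**
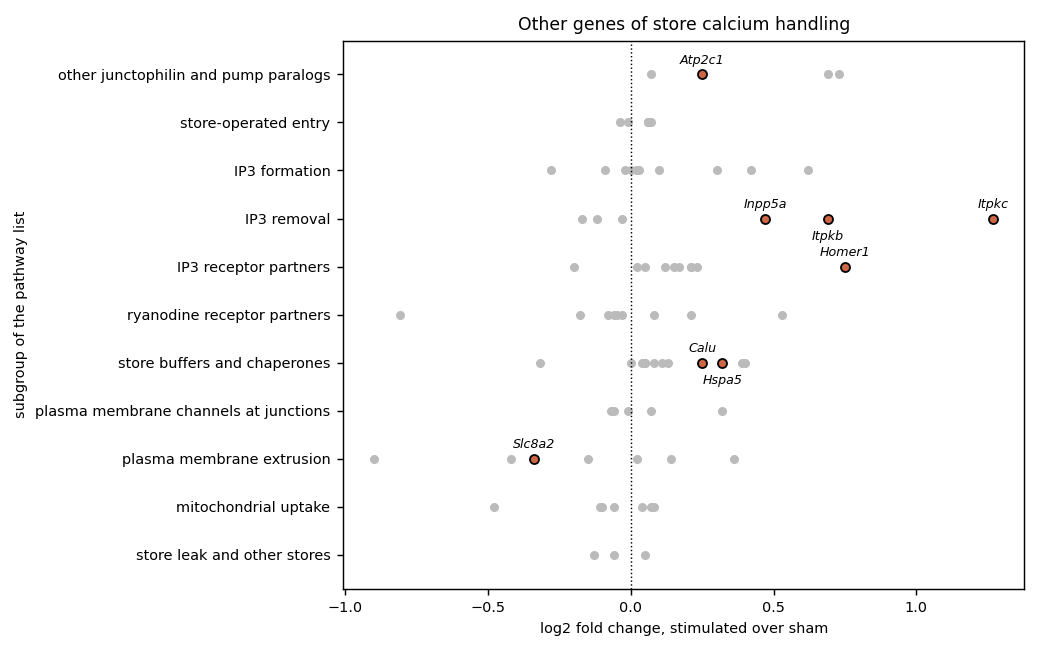
Log2 fold change of stimulated over sham rats (horizontal axis) for the 80 measured genes of the list, 1 point per gene, by role. Coloured and named points are the 8 genes with an unadjusted p-value under 0.05, 7 to the right of 0 and Slc8a2 to the left, and grey points are the rest.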

How the data were processed

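Messenger RNA from 5 sham and 5 stimulated rats was analysed from 1 matrix of deposited counts. Per the methods, alignment to the RN4 rat genome used BWA, and the authors counted reads with their own script over an Ensembl annotation, although the rows carry RefSeq transcript identifiers. How shared reads and strand were treated was not stated, so rows of 1 gene and overlapping genes are uncertain. The methods count fewer stimulated animals than the labels, so all 10 rats were used and each was left out in turn. Groups come from the treatment labels, which give no batch.

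Of 32041 rows, those with a summed count below the 30th percentile (46 counts) were left out, as in the study, and 22447 entered edgeR 4.0.16 (R 4.3.3, quasi-likelihood test, TMM factors, Benjamini-Hochberg adjustment over all rows). Adjusted p-values are those of this fit where no other tool is named. The 95% intervals use its total degrees of freedom. CPM use TMM-scaled library sizes and log2 CPM a prior count of 2. CPM are not corrected for transcript length, so levels were not compared between genes. Exact permutation tests compared mean log2 CPM over all assignments of rats to groups. Alternatives were RLE factors, library size alone, other filters, the likelihood ratio and exact tests of edgeR, DESeq2 1.42.0, limma-voom (limma 3.58.1), other quasi-likelihood settings, summed rows of a gene and each rat left out. The fits were tested on simulated data. Symbols were matched by transcript identifier and promoters by symbol in RefSeq tables of GRCr8. Python 3.11.15 with numpy 2.4.6, pandas 2.3.3, scipy 1.17.1 and matplotlib 3.10.9 was used.

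The members and lists were chosen with earlier results of these data known. Named were all members, Jph2, each list gene with an unadjusted p-value under 0.05, the gene with the lowest p-value in each group of the list, and Fos. In addition, 1 gene of the store calcium list and 1 CA1 marker are not reported here and were left out of the counts and sums of their lists.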

Additional observations from a re-analysis of the deposited data

Results flagged for a closer look

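Dixon's ratio, the distance of the highest or lowest rat of a group to the next one divided by the group's range, was computed for 46 groups of 5 rats. It exceeded the critical value of 0.71 in 4 groups, where chance gives about 2.3. None of the 8 members was among them. Slc8a2 in sham rat 1, at 268.5 CPM against 350.5 to 374.5 CPM in the other sham rats, had a ratio of 0.774. Itpkb in stimulated rat 7, at 99.5 CPM against 25.8 to 45.4 CPM in the other stimulated rats, had a ratio of 0.734. Atp2c1 in stimulated rat 7, at 166.7 CPM against 128.9 to 139.4 CPM, had a ratio of 0.723. Jph2 in sham rat 2, at 6 counts, had a ratio of 0.720 in CPM.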

How the results depend on the processing

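At an adjusted p-value under 0.05 the quasi-likelihood test called 0 rows, the likelihood ratio test of edgeR 119, its exact test 90 and DESeq2 33, and the cause was not tested. With each rat left out the count of rows at an adjusted p-value under 0.05 stayed at 0. At an unadjusted p-value under 0.05 it ranged from 1657 to 3145 around 2214, with 3145 without stimulated rat 6 and 3034 without rat 8. The count of members at that threshold ranged from 2 to 4 around 3. That of the other store calcium genes ranged from 6 to 14 around 8, with 14 without stimulated rat 6 or rat 8. Rows called lower and higher numbered 709 and 1505, 477 and 1725 with library size alone, and 937 and 1097 with limma-voom. Library size alone moved the median of all rows from 0.012 to 0.034. Jph4 kept its direction and unadjusted call in all 21 alternatives and Jph3 in 20. Jph1 and Itpr3 kept their direction in all 21 without passing in most. Kcnn3 changed sign without stimulated rat 7, to -0.08. No paired analysis was possible because the labels give the groups no shared replicate numbers. With 5 rats a group, the spread between rats exceeded counting error for most members, while for Itpr3 in stimulated rats the coefficient of variation, 11.8%, was close to the 11.0% of counting error, and Jph2 had too few counts to show a difference.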
